A study of Mus musculus with 14 samples.

Results

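The genes that define an adipocyte and fill it with lipid were followed as a set of 38 named mouse genes, out of 21853 protein-coding genes, through the ChIP-seq peak lists of 3T3-L1 adipocytes. The members were picked by name: 7 transcription factors, 4 adipokines, 7 genes of fatty acid and glycerol uptake, binding and activation, 8 of fatty acid synthesis, 6 of triglyceride synthesis, and 6 of the lipid droplet and caveolae. For each gene, peaks were counted at the promoter, meaning between 1000 bp upstream and 100 bp downstream of a start site, and elsewhere within 50 kb of the gene. All coordinates are GRCm38 (mm10).

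3T3-L1 is a mouse preadipocyte line that turns into adipocytes in culture, and every library here came from that line after 4 days of differentiation. Cells were left as controls or were exposed for 1 h to 10 µM forskolin (FSK), which activates adenylyl cyclase and so raises cAMP, to 10 ng/ml TNFα, an inflammatory cytokine, or to both agents at once. Immunoprecipitation targeted CRTC2, the cAMP-responsive coactivator of CREB, p65, the activating subunit of NF-κB, and H3AcK27, histone H3 acetylated at lysine 27, which marks active regulatory DNA. There was 1 library for each target under each treatment, 12 in all, so differences between treatments have no replicate check, no test was made, and the values below compare libraries.

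PPARγ, encoded by Pparg, pairs with RXRα and drives adipocyte differentiation together with C/EBP and EBF factors. Its targets include fatty acid binding proteins, lipoprotein lipase, perilipins and adipokines, while SREBP1 (Srebf1) and ChREBP (Mlxipl) switch on the enzymes that make fatty acids. cAMP is the classic signal for adipocytes to release stored fat, and TNFα is known to dampen the adipocyte program.

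Libraries held between 9832884 and 31807394 tags. The shallowest was H3AcK27 with FSK, so weak regions may be missed in that list. The authors set the control and TNFα libraries against an input of control cells and both FSK libraries against an input of FSK-treated cells, so a difference between those sets cannot be told apart from a difference between inputs. The lists held 5188 to 19527 CRTC2 peaks, 214 to 4221 p65 peaks and 38684 to 52321 H3AcK27 regions. In the 3 treated p65 lists the median peak had 3.72 to 4.56 tags per unit of the score, which limits repeated tags at a position, against 1.38 in the control list. Chromosome 3, with 4.57% of the genes, held 16.1% to 25.7% of p65 peaks and 7.49% to 12.99% of CRTC2 peaks. Chromosome 15, with 3.57% of the genes, held 8.05% to 14.95% and 5.54% to 9.02%. On both the CRTC2 share was highest in control cells. Chromosome 7 went the other way, with 9.19% of the genes and 4.47% of control CRTC2 peaks. Fabp4, Fabp5 and Elovl6 lie on chromosome 3, and Dgat1 and Gpd1 on chromosome 15. The part of this uneven spread in their peaks was not tested. Against the adipocyte label, 2 of 6 adipocyte marker genes, Fabp4 and Pparg, had an acetylated promoter in control cells, and Adipoq, Cidec, Plin1 and Cfd did not. All 4 preadipocyte markers did, with 1265.5 normalized tags (tags per 10000000 in the library) at Pdgfra, 1047.1 at Ly6a, 30.4 at Thy1 and 21 at Dlk1. Among other cell types, 1 of 5 macrophage markers (Csf1r), 1 of 4 endothelial, 0 of 4 hepatocyte and 0 of 3 muscle markers did. The part of undifferentiated cells in the results below was not tested.

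CRTC2 peaks lay at a larger share of member promoters than of promoters in general in every list. The share was highest after TNFα, the longest CRTC2 list, for members and for genes in general alike. In control cells 9 of 38 members (23.7%) had one, where the share of all protein-coding genes was 11.8%. With FSK it was 13 members (34.2%, all genes 27.4%), with TNFα 20 members (52.6%, all genes 39.9%), and with both 14 members (36.8%, all genes 29.1%). Members also had an acetylated promoter more often than genes in general, and among acetylated promoters alone the members' share was above that of genes in the control list only. Among genes with an acetylated promoter in control cells, CRTC2 was at 32.1%, 46.4%, 71.4% and 50% of the 28 members in the same order, and at 22.7%, 52.7%, 76.3% and 55.8% of the 11293 genes. None of the 10 members without acetylation had a CRTC2 peak at the promoter. Over all genes without it the shares were 0.161%, 0.426%, 0.975% and 0.701% in the same order. By role, the TNFα list held 6 of 8 genes of fatty acid synthesis, 5 of 6 of triglyceride synthesis, 4 of 7 of uptake and activation, 3 of 7 transcription factors, 2 of 6 droplet and caveolar genes, and 0 of 4 adipokines.

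**Figure D1:**
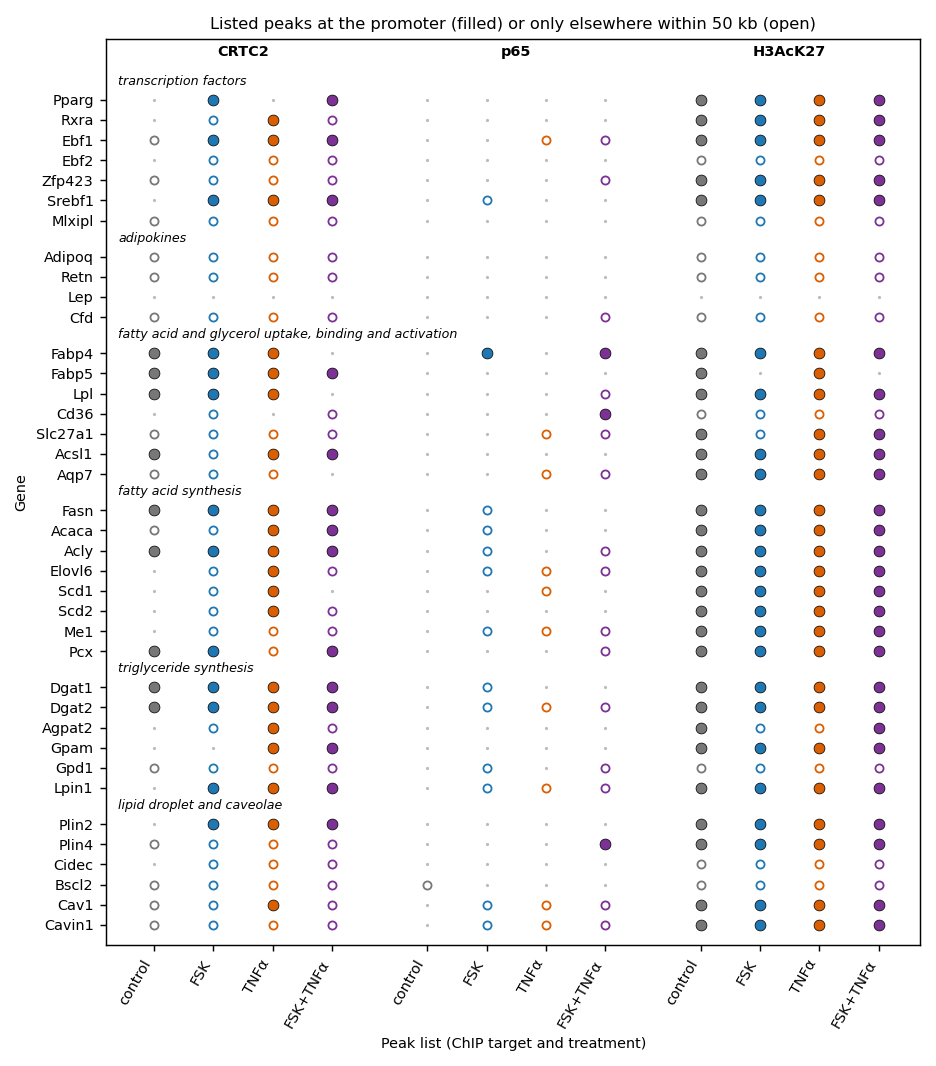
Each row is a gene, grouped by role, and each column a peak list named by ChIP target and treatment, with a filled circle for a peak at the promoter, an open circle for peaks only elsewhere within 50 kb, and a dot for neither. CRTC2 circles at the promoter are most frequent in the TNFα column (20 of 38 genes), p65 has 3 genes with a filled circle, and Lep has no circle.

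The strongest CRTC2 promoters of the set belonged to the enzymes at both ends of fat synthesis. Fasn, fatty acid synthase (ENSMUSG00000025153, chr11:120805846-120824547), carried a peak 39 to 45 bp after the start site in all 4 lists, with 20.7 normalized tags in the control library, 53.5 after FSK, 73.7 after TNFα and 49.4 after both. Acly, ATP citrate lyase, which supplies cytosolic acetyl-CoA (ENSMUSG00000020917, chr11:100476353-100528000), read 18.5, 50.5, 54 and 40.6 in the same order. Each of the 3 treated libraries was well above control at both genes. Dgat1 and Dgat2 encode the enzymes of the last step of triglyceride synthesis. Dgat1 (ENSMUSG00000022555, chr15:76502015-76511953) read 18, 46.8, 97.1 and 61.3, and Dgat2 (ENSMUSG00000030747, chr7:99153658-99182719) read 19.6, 60.8, 58.9 and 48.4. Counting error alone, as exact Poisson intervals at 95%, spans 12.5 to 25.2 for Dgat1 in control cells and 85.6 to 110 with TNFα, and repeated tags make these intervals too narrow. By score the Dgat1 peak ranked 111 of 19527 in the TNFα list, and the Fasn peak ranked 147 of 5188 in the control list.

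Fabp5, a fatty acid binding protein, was likewise listed in all 4 libraries but at lower values, 10.1, 13.4, 27.6 and 18.9 tags. Being listed in every CRTC2 library was seen for 5 of 38 members and for 8.32% of all genes. Over the members with a promoter peak in both lists, the median ratio to control was 1.96 with FSK (8 members), 2.83 with TNFα (8) and 2.19 with both (7). The same medians over all genes were 1.60, 2.22 and 1.53, so every treated library had a median ratio above 1 at members and at genes in general.

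Ebf1, Lpin1, Plin2 and Srebf1 had a CRTC2 promoter peak in all 3 treated lists and none in control, a pattern that 12.5% of all genes showed. Ebf1, an early B cell factor that acts upstream of Pparg, read 17.6 tags with FSK, 21.9 with TNFα and 11.9 with both. Srebf1, the lipogenic transcription factor, read 10.3, 26.1 and 13.5. Lpin1, the phosphatidate phosphatase that yields diacylglycerol, read 14.6, 27.6 and 13.8, and Plin2, a coat protein of lipid droplets, read 15.8, 12.1 and 19.2. TNFα gave the highest value for 3 of these 4 genes and the lowest for Plin2.

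A further 6 members (15.8%, all genes 7.15%) were listed with TNFα only. They were Cav1 (caveolin-1) at 16.6 tags, Elovl6 (a fatty acid elongase) and Scd2 (a stearoyl-CoA desaturase) at 12.5 each, Rxra at 11, Agpat2 (an acyltransferase of triglyceride synthesis) at 9.44 and Scd1 (another desaturase) at 8.69, all low beside Fasn. Acaca, acetyl-CoA carboxylase, was listed with TNFα (15.5 tags) and with both agents (15.1), and so was Gpam, the mitochondrial glycerol-phosphate acyltransferase (8.69 and 9.12). No member was listed in control cells alone, but some were missing from a treated list. Lpl, lipoprotein lipase, read 12.2 tags in control cells, 6.69 with FSK and 10.6 with TNFα and was not listed with both. Fabp4, the adipocyte fatty acid binding protein, read 7.41, 8.52 and 14.4 and was not listed with both. Acsl1, which activates fatty acids with CoA, read 15.9 in control cells, 22.7 with TNFα and 8.49 with both. Pcx, pyruvate carboxylase, read 9 in control cells, 9.13 with FSK and 11.6 with both. An absent peak may lie just under the threshold of its list.

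**Figure D2:**
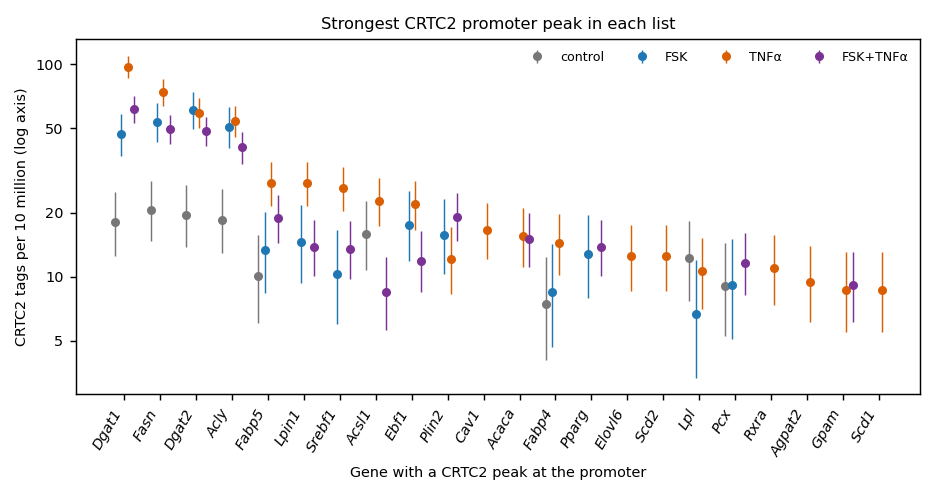
Normalized CRTC2 tags (log axis) of the strongest promoter peak of each of the 22 genes that had one, in each of the 4 libraries; bars are exact 95% Poisson intervals of the tag number, and a missing point means that no peak was listed. Dgat1, Fasn, Dgat2 and Acly stand above the rest, with all 3 treated libraries above control, and the genes at the right have 1 or 2 low points.

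Pparg itself (ENSMUSG00000000440, chr6:115360951-115490399, plus strand) had CRTC2 at a promoter only in the libraries with FSK. The start site concerned is the most downstream of its 5, at position 115422066 of chromosome 6. With FSK there were peaks of 12.8 and 9.73 tags at -924 and -213 bp and a further peak in the intron 2615 bp downstream. With both agents the promoter peak had 13.8 tags and lay at -261 bp, and no CRTC2 peak was listed within 50 kb of Pparg in control cells or with TNFα alone. FSK and combined treatment without control and TNFα is a pattern of 0.792% of all genes.

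Bases are shown for 4 of these promoters as examples of CRTC2 promoter peaks with a CRE or C/EBP match, the kinds of site where CREB and C/EBP proteins are known to bind. They were picked after the matches were seen. CRE cores also lay in promoter peaks of Pcx, Dgat2, Elovl6 and Agpat2, and C/EBP matches in those of Acaca and Acsl1. The motifs were searched on both strands in the 200 bp around each peak's midpoint: the CRE core TGACG, which reads CGTCA on the opposite strand, the AP1 site TGACTCA and its variant TGAGTCA, the C/EBP site TTGCNNAA, and the NF-κB and PPAR DR1 consensus by name. Capitals mark the match and up to 30 bases are given on either side. The genome is GRCm38, and the strand is that of the gene. The windows are chr15:76511954-76512010 (minus) for Dgat1 with a CRE 27 bp before the start site, chr19:55099452-55099501 (minus) for Gpam with a CRE 33 bp before it, chr11:44617201-44617273 (plus) for Ebf1 with a CRE at -84 and a C/EBP match at -78 that share no base, and chr6:115421821-115421888 (plus) for Pparg with a C/EBP match at -212.
Dgat1: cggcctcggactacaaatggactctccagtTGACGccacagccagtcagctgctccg
Gpam: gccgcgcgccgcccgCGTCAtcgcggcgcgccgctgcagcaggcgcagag
Ebf1: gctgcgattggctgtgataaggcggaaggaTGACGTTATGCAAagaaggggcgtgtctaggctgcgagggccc
Pparg: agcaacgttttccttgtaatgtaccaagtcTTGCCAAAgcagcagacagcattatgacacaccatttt

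The C/EBP match of Ebf1 is read on the minus strand. A CRE core was present in 3 of 10 member promoter peaks in the control list, 4 of 14 after FSK, 5 of 25 after TNFα and 6 of 15 after both. Over all promoter peaks of those lists the shares were 24.8%, 29.2%, 24.0% and 29.7%. The promoter peaks of Fasn and Acly, which were among the strongest, held none of the 5 motifs. In the RefSeq promoters (GRCm38, 250 bp before to 50 bp after the start), which could be matched for 29 members, CRE cores were found in 2, Ebf1 and Gpam, against 26.9% of 16515 genes. C/EBP matches were found in 5 (Cidec, Gpam, Lep, Pparg and Zfp423, a zinc finger factor of preadipocyte commitment), against 11.5%. The Dgat1 CRE core at -27 and the Ebf1 C/EBP match at -78, both printed above, lie in that span but are not among these. Dgat1 may not have been matched, but Ebf1 was. The RefSeq counts may therefore miss matches, and no shortage or excess is read from them. A match describes letters and was not tested for binding.

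Away from promoters, CRTC2 peaks within 50 kb were listed for 17 members in control cells (all genes 33.4%), 31 with FSK (53%), 32 with TNFα (64.6%) and 30 with both (57.6%). As shares of the 38 these are 44.7%, 81.6%, 84.2% and 78.9%. Most of these peaks sat closer to another gene. The member had the nearest start site for 4 of 30 peaks in the control list, 26 of 84 after FSK, 37 of 126 after TNFα and 24 of 75 after both, and 19, 41, 59 and 33 of them lay at the promoter of another gene. Counted by nearest start site, 4, 17, 19 and 15 members were left. The share of all genes was not computed for that count, so it is not read as high or low. Among genes with an acetylated promoter, the members' shares were 39.3%, 78.6%, 85.7% and 75%, and those of all such genes 44.6%, 70.1%, 84.5% and 75.3%. Scd1 and Scd2 are neighbours and share some of these peaks.

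The adipokine genes illustrate this. None of Adipoq (adiponectin), Retn (resistin), Lep (leptin) and Cfd (adipsin) had a CRTC2 peak at the promoter in any list. Cfd and Bscl2 (seipin, needed for lipid droplet formation) had the most CRTC2 peaks nearby, 25 each over the 4 lists, and in 0 of these was the member the nearest gene. They were followed by Cavin1 (22), a coat protein of caveolae, Mlxipl (16), and Adipoq, Gpd1 and Slc27a1 (15 each). At Adipoq 10 of the 15 lay at other genes' promoters, the strongest at the start of Eif4a2 (-38742 bp from Adipoq with TNFα), and 2, at 13300 and 13164 bp downstream of the start site with FSK and with both, were nearest to Adipoq. Cavin1 differed in that 8 of its 22 peaks were nearest to it and 5 lay inside the gene. Rxra, with 7 peaks, was the nearest gene to 6 of them.

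p65 peaks were rare at promoters, for members and for genes in general. The counts there were 0 members in control cells (all genes 0.0915%), 1 with FSK (2.63%, all genes 0.586%), 0 with TNFα (all genes 0.627%) and 3 with both (7.89%, all genes 1.01%). Fabp4 was the member with FSK, at 12 tags and 154 bp before the start site, and it was listed again with both agents at 14.2 tags and 183 bp before it. The other promoters with both agents were Cd36, the fatty acid translocase, at 12.2 tags and -660 bp, and Plin4, a perilipin of lipid droplets, at 10.7 tags and -581 bp. All 4 peaks had a score of 7, the lowest in their lists, and 8-fold enrichment over input was reached by Cd36 alone.

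Elsewhere within 50 kb, p65 was listed for 1 member in control cells (2.63%, all genes 1.82%), 13 with FSK (34.2%, all genes 16.5%), 10 with TNFα (26.3%, all genes 14.4%) and 16 with both (42.1%, all genes 21.7%). Among genes with an acetylated promoter the members' shares were 42.9%, 35.7% and 50% with FSK, TNFα and both, and those of all such genes 22%, 19.9% and 28.6%. The member was the nearest gene for 7 of 15, 6 of 10 and 10 of 23 of these peaks. Me1, malic enzyme, which makes NADPH for fatty acid synthesis, had a p65 peak in the same intron in the TNFα library (18.6 tags) and with both (21 tags). Cav1 had the peak with the highest score, 16 (20.4 tags with TNFα), 78332 bp from its start site, with Met the nearest start site at 77828 bp.

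CRTC2 and p65 peaks overlapped near 0 members in control cells (all genes 0.0503%), 1 with FSK (0.865%), 0 with TNFα (1.51%) and 3 with both (3.89%). In FSK-treated cells the locus lies in an intron of Cav1, 1937 bp after the start site, with 11 CRTC2 tags and 10.8 p65 tags. With both agents the loci were 3684 bp before Cavin1 (9.43 and 14.2 tags), at -17336 bp from Pcx (21.1 and 11.7 tags, nearest start site 2010003K11Rik) and 10045 bp beyond the end of Dgat2 (22.6 and 19 tags, nearest start site Uvrag at 2324 bp). The Pcx locus lay closer to its neighbour than to Pcx, as did the Dgat2 locus. The bases of 3 of these loci are given as examples so that sites can be seen side by side, while the Pcx locus, which held an AP1 match, is not printed. The windows are chr11:100974466-100974600 (minus) for Cavin1, chr6:17309559-17309623 (plus) for Cav1 and chr7:99143357-99143497 (minus) for the Dgat2 locus.
Cavin1: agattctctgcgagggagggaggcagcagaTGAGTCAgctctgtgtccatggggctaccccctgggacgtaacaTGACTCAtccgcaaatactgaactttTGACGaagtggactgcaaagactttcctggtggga
Cav1: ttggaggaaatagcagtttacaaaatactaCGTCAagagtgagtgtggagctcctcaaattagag
Dgat2 locus: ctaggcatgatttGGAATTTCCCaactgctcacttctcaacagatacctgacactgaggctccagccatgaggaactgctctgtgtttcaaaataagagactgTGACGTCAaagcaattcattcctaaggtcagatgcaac

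Capitals mark AP1 matches at -3680 and -3636 and a CRE core at -3611 bp near Cavin1, a CRE core at 1951 bp in Cav1, and an NF-κB match and a palindromic CRE, whose core reads on both strands, at the Dgat2 locus. The p65 peak in Cav1 also held an AP1 match that lies outside the window shown, and C/EBP matches lie beside the Cavin1 window. AP1 matches were present in 0 of 30 of the members' CRTC2 peaks away from their own promoters in the control list, 5 of 84 after FSK, 3 of 126 after TNFα and 8 of 75 after both. Over all CRTC2 peaks away from the promoters of any gene the shares were 4.85%, 22.0%, 8.24% and 24.0%. These sets are unlike, because 19, 41, 59 and 33 of the members' peaks lay at the promoter of another gene. Over all CRTC2 promoter peaks the AP1 shares were 2.37%, 2.34%, 2.15% and 2.77%. The NF-κB match was in 1 of the members' 23 p65 peaks away from their own promoters with both agents. In that list it was in 1.497% of p65 peaks away from the promoters of any gene.

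H3AcK27 marked more member promoters than promoters in general. It was listed at 28 of 38 members in control cells (73.7%, all genes 51.7%), 25 with FSK (65.8%, all genes 47%), 27 with TNFα (71.1%, all genes 51.4%) and 27 with both (71.1%, all genes 49.1%). Elsewhere within 50 kb, 36 members had a region in each list (94.7%), and all genes read 78.7%, 75.4%, 78.3% and 76.6% in the same order. The exceptions there were Lep and Fabp5. In 25 members the promoter was listed in all 4 libraries. Of the others with a control region, Fabp5 was listed in control cells and with TNFα, Agpat2 in control cells and with both, and Slc27a1, a fatty acid transport protein, in all but FSK.

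The 10 members without an acetylated promoter in any list were Adipoq, Retn, Lep, Cfd, Cidec (which fuses lipid droplets), Cd36, Gpd1 (glycerol-3-phosphate dehydrogenase), Mlxipl, Bscl2 and Ebf2. Acetylation near them began at a distance. From the closest start site to the nearest control region it was 2102 bp at Cfd, 3123 bp at Cidec, 3305 bp at Bscl2, 5036 bp at Gpd1, 5212 bp at Mlxipl, 8796 bp at Adipoq, 11163 bp at Cd36, 19927 bp at Retn and 20759 bp at Ebf2. Their promoters were also poor in CpG, with a median observed over expected ratio of 0.249 against 0.456 in the 28 acetylated members. Over all genes the same medians were 0.216 and 0.569, so the members follow the general split between unacetylated and acetylated promoters.

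Within the bounds of the control promoter region, the tags listed were below control at 25 of 28 members with FSK (80.1% of genes), 20 with TNFα (51.5%) and 22 with both (68.3%). Lower values were thus also the rule for genes in general with FSK and with both. With TNFα genes in general were split almost evenly, at a median ratio of 0.993. At Lpl (ENSMUSG00000015568, chr8:68880491-68907448) there were 359 normalized tags in the control library, 143 after FSK, 222 after TNFα and 131 after both. At Fabp4 (ENSMUSG00000062515, chr3:10204088-10208576) the values were 188, 70.2, 162 and 71.7, and at Plin4 438, 182, 276 and 150. Control was highest and combined treatment or FSK lowest at all 3 genes. Exact 95% Poisson intervals, for counting error only, ran from 337 to 382 for Lpl in control cells and from 117 to 145 with both agents.

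Within the control bounds at the downstream Pparg promoter the values were 191 in the control library, 128 after FSK, 159 after TNFα and 58.7 after both. The control region of 5180 bp was listed there as 2 smaller regions in each treated library, and these covered 62.2%, 86.4% and 37.6% of it. The region at the promoter itself held only 24.4 tags after FSK, 100 after TNFα and 31.1 after both. With FSK and with both, no region lay over the start site, and the nearest was 100 and 134 bp away. Fabp5 read 98.5 tags in control cells and 74 with TNFα and was not listed with FSK or with both. Aqp7, the glycerol channel of adipocytes, read 107, 11, 89 and 76.1. With both agents the region at its promoter held 10.9 tags, close to the 11.2 with FSK, and the rest lay elsewhere within the bounds. No library had a region over an Aqp7 start site, the nearest in control cells being 814 bp away. Acsl1 read 249, 154, 270 and 202, above control with TNFα. Slc27a1 read 90.9 in control cells, 29.7 with TNFα and 21.8 with both. The synthesis genes varied among themselves. Fasn read 626, 460, 616 and 604, Elovl6 361, 402, 405 and 388, Acaca 227, 223, 306 and 249, and Dgat1 463, 582, 424 and 631, close to control or above it in most treated libraries. Pcx read 570, 343, 523 and 349, and Scd2 read 452, 402, 420 and 250, below control in every treated library within these bounds. The bounds cut wider treated regions. Taken whole, the TNFα regions held more tags than control, 643 at Pcx and 473 at Scd2. The whole Scd2 region with both agents held 425 tags over 9049 bp, against 452 over 5531 bp in control cells. The Pcx bounds lie over an internal start site (4515654), not the outermost (4510472).

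Over the 28 members with a control region the median ratio of these tags to control was 0.656 with FSK, 0.912 with TNFα and 0.734 with both, and over 11293 genes it was 0.793, 0.993 and 0.881. Ratios at least 1.5-fold below control were counted at 14, 5 and 10 members, against 30.8%, 6.84% and 21.7% of genes. Ratios at least 1.5-fold above it were counted at 0 members and at 1.42%, 1.58% and 2.18% of genes. Because the bounds come from the control list, ratios under 1 are favoured for members and genes alike. Below 0.5 of control lay 7 members with FSK (Fabp4, Fabp5, Lpl, Slc27a1, Aqp7, Agpat2 and Plin4), 2 with TNFα (Slc27a1 and Agpat2) and 6 with both (Pparg, Fabp4, Fabp5, Lpl, Slc27a1 and Plin4), beside 15.8%, 3.14% and 11.4% of genes. Agpat2 started from 20.3 tags.

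**Figure D3:**
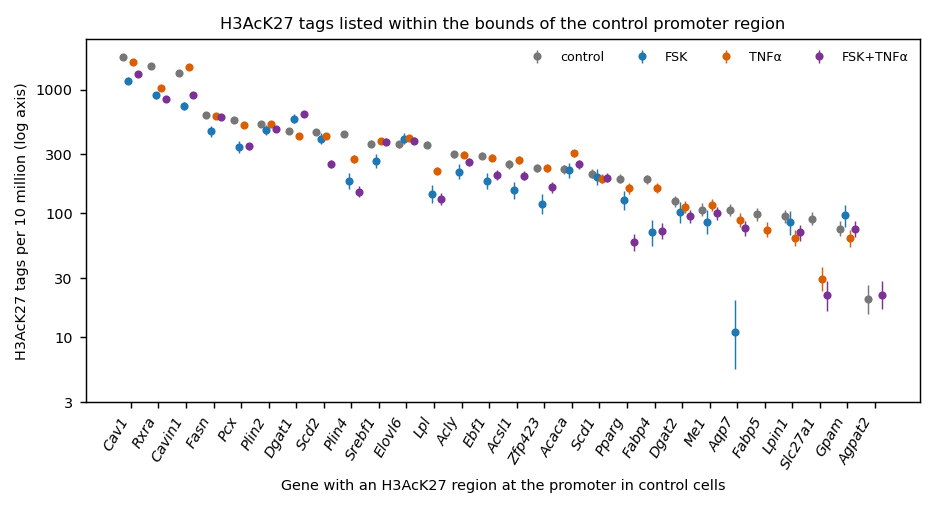
Normalized H3AcK27 tags (log axis) listed within the bounds of the control promoter region, for the 28 genes with such a region, ordered by the control value; bars are exact 95% Poisson intervals and a missing point means that nothing was listed. At Lpl, Plin4 and Fabp4 the FSK and combined points lie far below control, and at Dgat1 they lie above it.

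Density told less. Measured as tags per kb of the region over the outermost start site in each list, 19 members had a ratio for FSK, 21 for TNFα and 19 for both. Densities at least 1.5-fold higher than control were found at 1 member with FSK (all genes 7.3%), 1 with TNFα (3.6%) and 1 with both (9.64%), and densities at least 1.5-fold lower at 2 (2.92%), 1 (1.2%) and 4 (3.2%). The median log2 ratios of members were -0.03, 0.06 and -0.16, and those of all genes 0.07, 0.10 and 0.12. Lpl was lowest in every contrast, at 94.5 tags per kb in the control library, 52.0 after FSK, 59.4 after TNFα and 44.7 after both, for log2 ratios of -0.86, -0.67 and -1.08. Next lowest were Fabp4 (-0.59) and Acsl1 (-0.50) with FSK, Plin4 (-0.48) and Acaca (-0.19) with TNFα, and Scd2 (-0.80) and Cavin1 (-0.60) with both. Scd2 with both held nearly the control tags (425.2 against 451.8) in a wider region (9049 against 5531 bp), so its lower density went with width. Cavin1 with both had fewer tags (1035.8 against 1362.3) in a somewhat wider region (12179 against 10552 bp).

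Me1 was highest in every contrast, at log2 ratios of 0.68, 0.98 and 0.80. Its region was 3859 bp wide in control cells and 1907 to 2134 bp after treatment, while its tags were 107.6, 85.4, 117.6 and 98.7, so the higher density went with a narrower region. Next were Rxra (0.49) and Dgat1 (0.45) with FSK, Fasn (0.47) and Srebf1 (0.26) with TNFα, and Acaca (0.54) and Dgat1 (0.54) with both. Rxra with FSK had fewer tags than control (642.7 against 1565.9) in a narrower region (5567 against 19061 bp). So did Acaca with both (45.5 against 71.4 tags, 752 against 1718 bp), and Fasn tags were 616.1 against 626.1. Dgat1 and Srebf1 had more tags than control. The Acaca tags within control bounds given above are from another, internal promoter. Median log2 width ratios were lower at members than over all genes, at -0.46, -0.08 and -0.27 against -0.22, 0.02 and -0.10. In control cells member regions were wide, with a median of 4046.5 bp against 2638 bp.

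Summed over the gene and 50 kb on either side, the length of acetylated chromatin was largest in control cells for most members. Pparg had 56.1 kb in control cells, 21.6 kb with FSK, 41.5 kb with TNFα and 14.9 kb with both, and the tags in it went from 2592 to 872, 1693 and 460. Lpl had 9.83, 3.76, 7.67 and 3.92 kb, and Fabp4 had 8.88, 3.36, 5.52 and 3.49 kb. Srebf1 had 8.84, 2.08, 4.76 and 3.77 kb. Ebf1 differed, with 30.9 kb in the control library, 9.26 after FSK, 30.3 after TNFα and 16.0 after both, so that TNFα alone left its length within 1 kb of control. Fasn (28.0, 24.2, 25.3 and 29.2 kb) and Dgat1 (26.6, 23.7, 26.1 and 23.1 kb) moved little by comparison. Me1 was longer than control with TNFα (8.63 against 11.0 kb) and with both (10.6 kb), and Cd36 was longer with FSK (1.52 against 2.45 kb) and with both (3.34 kb).

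The median ratio of acetylated length to control was 0.624 with FSK, 0.935 with TNFα and 0.688 with both over 37 members, and 0.689, 0.971 and 0.790 over 17149 genes. Lengths were shorter at 35, 30 and 34 of the 37 members and at 90.7%, 57.8% and 80.3% of genes. Shorter lengths with FSK were thus seen at most genes, in lists that were called against another input than control and, for FSK alone, came from the shallowest library. The part of depth and input was not tested. Within the pair called with the same input, combined treatment against FSK, the median was 1.11 over 36 members and 1.12 over genes. Pparg stood low in that pair too, at 0.687, with 4.26% of genes lower, whereas Srebf1 read 1.81 and Ebf1 1.73. Members carried more acetylation to begin with, since a median of 11.2% of their windows was covered in control cells, and 5.56% over all genes.

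**Figure D4:**
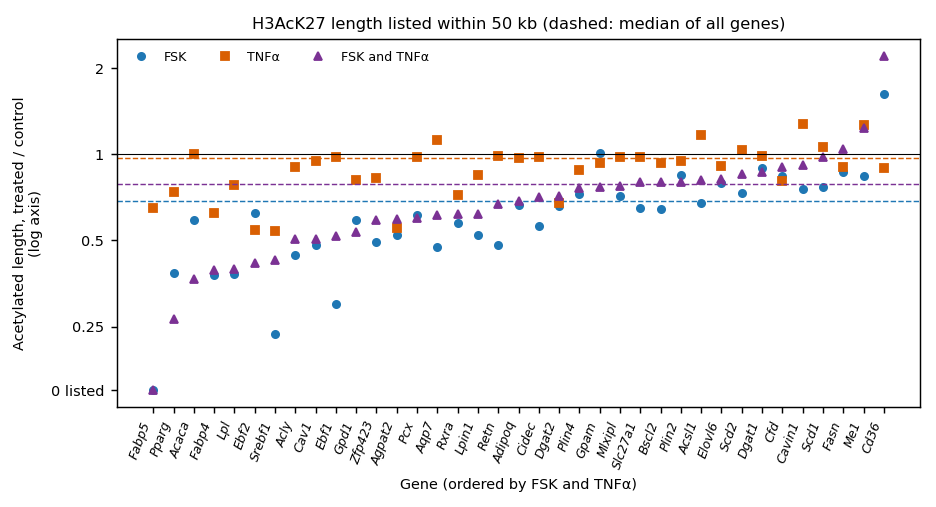
Ratio to control of the H3AcK27 length listed within 50 kb of each of 37 genes (log axis), for FSK (circles), TNFα (squares) and both (triangles), ordered by the combined treatment; dashed lines are medians over all genes and the solid line marks a ratio of 1. Pparg, Fabp4 and Lpl lie far left with FSK and combined ratios under 0.4, and TNFα squares mostly lie between those and 1.

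**Figure D5:**
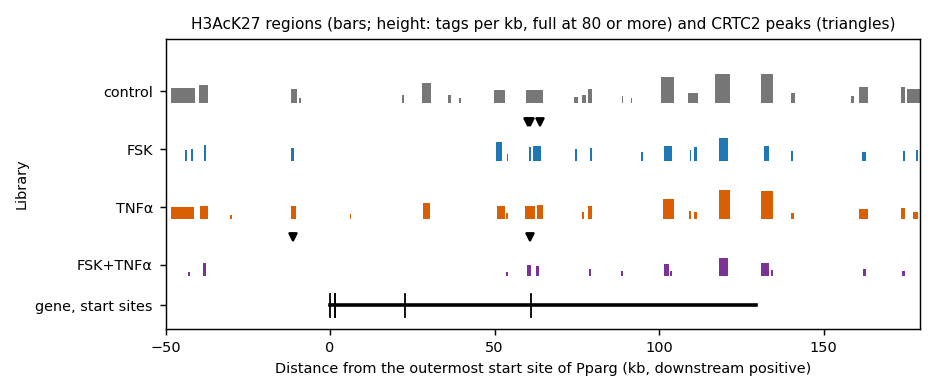
H3AcK27 regions (bars, height in tags per kb) in the 4 libraries along Pparg and 50 kb on either side, in kb from its outermost start site, with CRTC2 peaks as triangles above the bars of the same library and start sites as ticks on the gene. Regions cover 56.1 kb in control cells and 14.9 kb with FSK and TNFα, and CRTC2 triangles appear with FSK and with both agents only.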

How the data were processed

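The authors deposited 1 HOMER peak list for each of 12 ChIP-seq libraries of 3T3-L1 adipocytes; the 2 inputs enter through those lists only. HOMER and STAR are named in the submitters' processing notes without versions. The deposited signal is a tag coverage of the peak scaled to 10000000 tags, the deposited score is HOMER's own, and the deposited fold is the ratio of tags to the input or to the surrounding 10 kb, with at least 4-fold required. H3AcK27 regions were joined from 500 bp windows.

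Gene models and start sites came from GENCODE mouse release 21, protein-coding transcripts only (GRCm38, the mm10 build of the notes). Members and lists were chosen with earlier results of these data known. Acetylated length, tags within control bounds and the acetylated-promoter background were added after seeing the data. Members named with values were those with CRTC2 or p65 at the promoter, with overlapping CRTC2 and p65 peaks, without promoter acetylation, with the 3 highest or lowest H3AcK27 density ratios, or with the most CRTC2 peaks nearby. Aqp7 and the members given by acetylated length or tags within control bounds were chosen after their values were seen. Tags of a region cut by a boundary were taken in proportion to its length. RefSeq promoters matched 29 members and 16515 genes. With 1 library per group no test was made. The counting code was tested on simulated data. The code ran under Python 3.11.15 with matplotlib 3.10.9, pysam 0.24.0, scipy 1.17.1 and numpy 2.4.6. Reads were not analysed here.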

Additional observations from a re-analysis of the deposited data

How the results depend on the processing

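Each group had 1 library, so there was no replicate error to set a value against, and the depth of a library limits which weak peaks are listed. No paired analysis was possible because each group had 1 library and no result came from a test. Of 167 alternative values, 113 stayed within 1.5 times the count or 0.1 log2 units of the median, 51 moved further and 3 turned the sign. The cause of these shifts was not tested.

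With at least 8-fold over input, CRTC2 was at 5 member promoters in control cells and 8 with FSK, and p65 at 0 with FSK and 1 with both. H3AcK27 was then at 18 in control cells, 11 with FSK and 13 with both, and overlapping CRTC2 and p65 peaks were near 0 members with FSK and 1 with both. The median acetylated length ratio at that limit was 0.475 with FSK (all genes 0.509) and 0.587 with both (all genes 0.581). Members were thus no longer below genes with both agents. Counting only the nearest start site, peaks elsewhere were listed for 4, 17, 19 and 15 members for CRTC2 and 0, 7, 6 and 8 for p65 (control, FSK, TNFα, both). Within 20 kb, p65 was near 0 members in control cells (all genes 0.998%), 5 with FSK (13.2%, all genes 10.3%) and 10 with both (26.3%, all genes 13.5%). Within 50 kb of the outermost start site it was near 6 with TNFα (15.8%, all genes 11.0%). Using that start site alone gave 9 CRTC2 promoters with both. With p65 lists of equal size, combined treatment had p65 at 0 promoters (all genes 0.682%) and elsewhere at 10 members (26.3%, all genes 13.8%). Midpoints within 100 bp left 0 overlaps with FSK. For the counts given here without a share, the share of all genes was not computed. Equal H3AcK27 lists gave acetylated length ratios of 0.774 with FSK (all genes 0.808) and 0.738 with both (all genes 0.888).

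For H3AcK27 density, a 2-fold limit gave 0 members higher in any contrast and 0, 0 and 1 lower with FSK, TNFα and both. Tags not divided by width gave medians of -0.47, -0.031 (sign turned) and -0.39, with 9 members lower with FSK, 3 lower with TNFα and 0 higher with TNFα. Centring on all genes gave -0.043 with TNFα (sign turned) and -0.28 with both. The region with the most tags gave 2 members lower with TNFα and 2 higher with both. Tags within the control bounds, an alternative chosen after seeing the data, gave medians of -0.61, -0.13 (sign turned) and -0.45, with 14, 5 and 10 members lower and 0 higher in each.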

Other observations

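A second list of 35 genes of lipid handling that are not among the 38, such as other acyltransferases, desaturases, sterol sensors and lipase partners, gave a similar count of acetylated promoters, with 27 in the control list, 25 after FSK, 26 after TNFα and 26 after both. CRTC2 was at 6, 17, 20 and 14 of their promoters in the same order, and p65 at 2 with FSK and at 0 in the other libraries. Over all genes the shares with an acetylated promoter were 51.7%, 47%, 51.4% and 49.1%. For CRTC2 they were 11.8%, 27.4%, 39.9% and 29.1%, and for p65 0.0915%, 0.586%, 0.627% and 1.01%. For acetylation density at the start site the median log2 ratios were 0.15 with FSK (19 genes), 0.02 with TNFα (23) and 0.22 with both (22). By density these genes did not show the lower medians of the 38 with FSK and with both, although the difference between the lists was not tested. Tags within the control bounds were not summarised for this list. No trait particular to the 38 is read from the comparison, since some promoters of this list also had fewer tags after FSK. Angptl4, an inhibitor of lipoprotein lipase, had 1140.5 tags in its promoter region in the control library, 432.2 after FSK, 1247.9 after TNFα and 675.5 after both. Acsl4, an acyl-CoA synthetase, went the other way, with 643.8, 1036.3, 885.4 and 988 tags.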
